A study of Mus musculus with 6 samples.

Results

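The metallothionein and zinc transporter genes described here are Mt1, Mt2, the transcription factor gene Mtf1, the exporter gene Slc30a1 and the importer genes Slc39a1, Slc39a6, Slc39a7, Slc39a10 and Slc39a14. These 9 genes were matched by symbol to Entrez gene IDs, out of 27179 IDs in the count files, and all 9 were among the 13202 genes tested. The list was chosen by function, but with the diet differences of these same libraries known, and Mt1 had already been seen to differ between the diets. Their diet differences are therefore given as a description and not as an independent test.

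Muscle satellite cells, the resident stem cells of skeletal muscle, had been isolated by flow cytometry from wild-type C57Bl/6N mice and profiled by RNA-seq of total RNA after depletion of ribosomal RNA. The 3 libraries of the high-fat diet (HFD) group and the 3 of the chow group share strain, genotype, tissue and cell type and differ in the diet, in a design that sets obese against lean mice. The sources used here do not give the age and sex of the mice, the time on the diet or the number of animals behind a replicate. The p-values thus cover the variation from library to library, part of which may be technical. Library totals lay between 14930394 and 18217818 counts.

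Metallothioneins are small cysteine-rich proteins that bind zinc and copper ions in the cytosol. When zinc rises, the zinc-finger factor MTF-1 (gene Mtf1) binds metal response elements and activates the metallothionein genes and the exporter gene Slc30a1. Transporters of the Slc30 (ZnT) family move zinc out of the cytosol, to the outside of the cell or into organelles, and those of the Slc39 (ZIP) family move it into the cytosol. Mt1 and Mt2 are also induced by glucocorticoids and by cellular stress, and their transcripts are known to increase in wasting muscle.

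High-fat diet library 1 and chow library 3 stood apart, with reads for 13879 and 13655 genes against 14939 to 15467 in the other 4 libraries. The summed level of the 10 satellite cell markers (Pax7, Myf5, Vcam1, Itga7, Cd34, Calcr, Chrdl2, Cdh15, Sdc4 and Fgfr4) ran from 4162 to 5123 CPM (counts scaled to a library of fixed standard size) with the HFD and from 4312 to 5214 CPM with chow. Within this list members moved apart. In edgeR 0 of 10 passed an adjusted p of 0.05, but 4 of 10 had an unadjusted p under 0.05, beside 7.65% of all tested genes. These 4 did not overlap between the diets, beside 15.3% of all tested genes. Pax7, the transcription factor that defines satellite cells, was at 171, 247 and 283 CPM with the HFD and at 370, 405 and 430 CPM with chow, a log2 fold change of -0.78 ± 0.20 SE that did not pass in edgeR (adjusted p = 0.1799). It passed in DESeq2 (adjusted p = 0.0125) and in limma-voom (adjusted p = 0.0281). Fgfr4 was lower as well, whereas Itga7 and Chrdl2 were higher (log2 fold changes of -0.48, 0.59 and 0.56). Whether this shift among the markers had a part in the metallothionein values was not tested. Sums over 7 endothelial markers (229 to 371 against 260 to 335 CPM), 7 fibro-adipogenic markers (721 to 1005 against 699 to 824 CPM), 6 smooth muscle and pericyte markers (607 to 643 against 574 to 676 CPM), 7 macrophage and leukocyte markers (9.22 to 26.5 against 19.2 to 56.7 CPM) and 7 myofibre markers (9.91 to 23.1 against 18.9 to 32.3 CPM) overlapped between the diets for every list. Of the single markers on these other lists, the endothelial gene Kdr was the 1 with an unadjusted p under 0.05 in edgeR, at 24.3, 23.8 and 39.3 CPM with the HFD and 11.9, 13.7 and 7.29 CPM with chow (adjusted p = 0.442). The macrophage marker Adgre1 and the globin gene Hbb-bs had 0 reads in all 6 libraries, which allows up to 0.195 CPM in the library with the fewest reads. Other markers of these cell types were read. Cd68, of the macrophage and leukocyte list, was at 6.31 to 31.0 CPM, and the erythroid gene Alas2 reached 1.78 CPM in chow library 3. The genes without reads thus do not show that such cells were absent.

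Mt1 was the member with the largest difference in relation to its error. It lies on chromosome 8 (94178883 to 94180327, GRCm38), next to Mt2 (94172618 to 94173567), and both are protein-coding genes of 3 exons. Mt1 was read at 588, 338 and 478 CPM in HFD libraries 1, 2 and 3 and at 949, 1087 and 958 CPM in chow libraries 1, 2 and 3. The diets did not overlap: the highest HFD value was under the lowest chow value, and HFD library 2 was lowest. The means were 468 ± 125 CPM with the HFD and 998 ± 77.4 CPM with chow (SD, n = 3 each), a 2.13-fold lower level (log2 fold change -1.09 ± 0.19 SE; edgeR adjusted p = 0.0326). In RNA of sorted cells, fewer cells of a kind and less RNA per cell cannot be told apart.

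Mt2 was read at 484, 229 and 358 CPM with the HFD and at 611, 621 and 529 CPM with chow. Again the diets did not overlap, and the order of the HFD libraries was that of Mt1. The means were 357 ± 128 and 587 ± 50.3 CPM, a 1.64-fold lower level that did not pass over all genes (log2 fold change -0.72 ± 0.23 SE; edgeR adjusted p = 0.332). In limma-voom it passed (adjusted p = 0.0362), and in DESeq2 it did not (adjusted p = 0.0806).

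The balance within the pair was also read per library, as a description. Mt1 took 54.8%, 59.6% and 57.1% of the summed Mt1 and Mt2 reads in HFD libraries 1, 2 and 3, compared with 60.9%, 63.7% and 64.4% in chow libraries 1, 2 and 3. This share needs no scaling between libraries, and its values did not overlap between the diets. No such share was computed for other gene pairs, so no background stands beside it. Mt1 had been listed with its diet difference known. Reads of Mt2 may also include some of an antisense gene, described below. Each library held 5288 to 18653 Mt1 reads and 3578 to 10650 Mt2 reads.

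The coding sequences of the pair (RefSeq-linked GENCODE M21 transcripts, GRCm38, plus strand, stop codon left out) are shown because they make the metal-binding character of these proteins and the likeness of the 2 genes visible. Cysteine codons are in capitals.
Mt1: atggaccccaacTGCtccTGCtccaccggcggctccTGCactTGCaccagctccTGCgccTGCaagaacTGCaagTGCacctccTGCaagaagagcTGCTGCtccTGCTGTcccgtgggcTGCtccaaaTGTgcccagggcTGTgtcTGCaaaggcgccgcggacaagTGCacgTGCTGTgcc
Mt2: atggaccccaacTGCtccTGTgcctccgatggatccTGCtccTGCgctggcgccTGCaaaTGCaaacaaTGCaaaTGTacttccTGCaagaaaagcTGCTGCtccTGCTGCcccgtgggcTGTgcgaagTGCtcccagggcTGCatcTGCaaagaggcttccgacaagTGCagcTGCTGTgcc

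Each sequence has 183 bases in 61 codons, of which 20 (32.8%) encode cysteine and 0 encode an aromatic residue. All 20 cysteine codons stand at the same positions in both genes. Between them 145 of 183 bases (79.2%) are identical, but the longest identical run between the whole transcripts is 20 bases, well under the 75-base read length. No 75-base stretch of the Mt1 transcript (549 bases) occurs in the transcript of another GENCODE gene. Of the 437 such stretches of the Mt2 transcript (511 bases), 141 occur in reverse in the antisense gene Gm45774. The sources used here do not give the strand setting of the counting, so reads of Mt2 and this antisense partner cannot be told apart.

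Of the 7 searched members, Mt1, Mt2 and Slc30a1 were the 3 that held a metal response element core. The 250 bases before the start used in the search show where these motifs lie. The core was searched as TGCACNC or TGCGCNC on both strands, in windows that also took in the 50 bases after the start. Matches are in capitals. The windows are chr8:94178839-94179088 (Mt1), chr8:94172368-94172617 (Mt2) and chr1:191906531-191906780 (Slc30a1), all on the plus strand of GRCm38.p6, from RefSeq. For Mt2 the window ends just before the gene span. For Mt1 and Slc30a1 the start used lies inside the gene span, which begins at 94178883 and at 191906697. Part of each of these windows thus lies within the gene, and the bases before the outermost start were only partly searched.
Mt1: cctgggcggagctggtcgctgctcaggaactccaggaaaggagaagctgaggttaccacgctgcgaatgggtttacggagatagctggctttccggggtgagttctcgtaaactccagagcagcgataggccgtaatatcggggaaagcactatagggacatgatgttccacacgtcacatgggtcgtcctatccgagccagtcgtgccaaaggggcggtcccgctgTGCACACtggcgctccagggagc
Mt2: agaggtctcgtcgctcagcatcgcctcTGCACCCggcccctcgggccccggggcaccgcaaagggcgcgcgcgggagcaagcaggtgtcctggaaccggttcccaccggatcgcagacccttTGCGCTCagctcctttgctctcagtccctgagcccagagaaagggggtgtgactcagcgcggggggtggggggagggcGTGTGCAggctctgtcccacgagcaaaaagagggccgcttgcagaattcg
Slc30a1: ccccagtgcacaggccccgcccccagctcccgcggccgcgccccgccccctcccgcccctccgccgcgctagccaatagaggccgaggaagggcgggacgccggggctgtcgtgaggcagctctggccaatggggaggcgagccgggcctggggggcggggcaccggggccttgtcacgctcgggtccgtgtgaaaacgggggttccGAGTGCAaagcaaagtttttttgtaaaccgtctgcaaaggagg

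Mt2 had 4 matches in its 300 bases, 3 before the start and 1 after it. Mt1 had 3, of which 1 lay before the start and 2 within this stretch just after it (chr8:94179089-94179118, plus strand). Before and after refer only to the start used in the search, and which start the cells used was not tested. The coding sequence of Mt1 begins further on, at 94179311, and the bases between the searched window and that position were not searched.
Mt1 after the start: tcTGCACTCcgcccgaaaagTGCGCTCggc

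Slc30a1 had 2 matches, 1 on each side of the start. At least 1 match was present in 25.7% of 32851 windows, at least 2 in 7.11%, at least 3 in 1.97% and at least 4 in 0.517%. Counted per gene, over the 9766 tested genes with a window, the shares were higher, at 40.5%, 13.6%, 3.90% and 1.06%. Windows of Mtf1, Slc39a1, Slc39a7 and Slc39a10 (2 starts) held 0 matches, which says only that these letters are not in those 300 bases. Slc39a6 and Slc39a14 were not searched. A match is a description of the sequence and not a measured binding site.

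**Figure D1:**
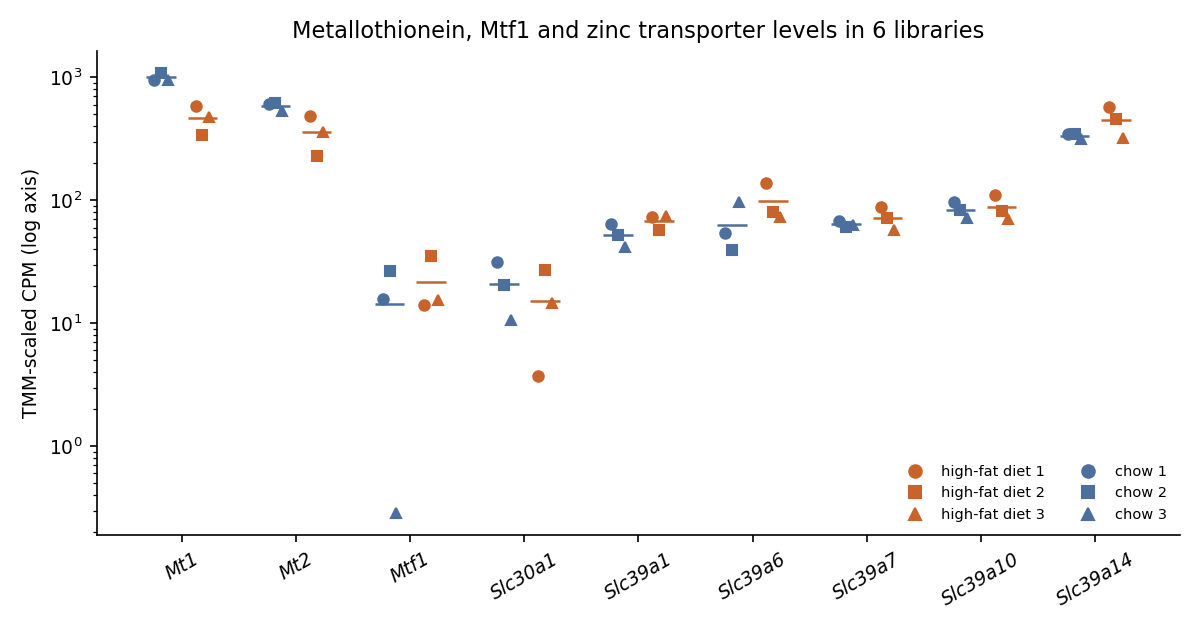
TMM-scaled CPM (log axis) of the 9 genes in each of the 6 libraries; horizontal bars are the diet means. Mt1 and Mt2 separate the diets, the other 7 genes overlap, and Mtf1 is at 0.287 CPM in chow library 3.

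Mtf1, the zinc sensor gene (chromosome 4, 124802549 to 124849800), was read at 14.1, 35.0 and 15.3 CPM with the HFD and at 15.8, 26.7 and 0.287 CPM with chow. The last value rests on 5 reads, against 217 to 548 reads in the other 5 libraries, and chow library 3 is also the library with the fewest genes detected. The diets overlapped (log2 fold change 0.59 ± 0.95 SE; adjusted p = 0.992). Without chow library 3 the log2 fold change was 0.02. Of its 75-base stretches 8.56% occur in reverse in 1110065P20Rik, which overlaps it and had at most 23 reads in a library.

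Slc30a1 encodes ZnT1, the exporter of the plasma membrane (chromosome 1, 191906697 to 191913248). Its values were 3.71, 27.2 and 14.6 CPM with the HFD and 31.5, 20.6 and 10.7 CPM with chow. High-fat diet library 1 was the lowest, with 57 reads, and the diets overlapped (log2 fold change -0.46 ± 0.69 SE; adjusted p = 0.990). Its size depended on single libraries: the log2 fold change was 0.01 without HFD library 1, -0.035 without chow library 1 and -1.20 without HFD library 2, with -0.31 without both libraries that stood apart. Of the 75-base stretches of Slc30a1, 7.64% occur in reverse in 1700034H15Rik, which overlaps it.

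Of the ZIP importers, Slc39a14 (chromosome 14, 70303467 to 70351452), which carries zinc as well as iron and manganese, had the highest level per length. It was read at 570, 461 and 319 CPM with the HFD and at 347, 346 and 313 CPM with chow. High-fat diet libraries 1 and 2 lay above all chow libraries and library 3 within their range. The means of 450 ± 126 and 335 ± 19.6 CPM differed by 0.42 ± 0.20 SE on the log2 scale (adjusted p = 0.659).

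Slc39a6 (ZIP6), a plasma membrane importer on chromosome 18 (24579881 to 24603817), was at 139, 80.7 and 73.2 CPM with the HFD and at 54.4, 39.1 and 96.5 CPM with chow. Chow library 3 lay above HFD libraries 2 and 3, so that the diets overlapped (log2 fold change 0.62 ± 0.35 SE; adjusted p = 0.757). Its relative Slc39a10 (ZIP10, chromosome 1, 46807544 to 46925776) was at 110, 82.4 and 70.7 CPM against 96.3, 82.9 and 72.1 CPM. The values of the 2 diets nearly coincided (log2 fold change 0.07 ± 0.25 SE; adjusted p = 1.00), and the sign turned without HFD library 1 (-0.12) or chow library 3 (-0.03).

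Slc39a1 (ZIP1, chromosome 3, 90248190 to 90253613), a widely expressed importer, was at 73.0, 56.9 and 74.0 CPM with the HFD and at 64.2, 52.1 and 41.3 CPM with chow. Chow library 1 lay above HFD library 2 (log2 fold change 0.37 ± 0.28 SE; adjusted p = 0.899). Slc39a7 (ZIP7, chromosome 17, 34028266 to 34031690), which releases zinc from the endoplasmic reticulum, was at 87.9, 72.3 and 56.7 CPM against 67.9, 60.1 and 63.1 CPM. The HFD values enclosed all chow values (log2 fold change 0.18 ± 0.26 SE; adjusted p = 0.989). Reads of both are uncertain, since 17.9% of the 75-base stretches of Slc39a1 recur in the pseudogene Slc39a1-ps and 80.9% of those of Slc39a7 in Gm20427.

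In all, 1 of the 9 genes passed an adjusted p of 0.05 over all genes, beside 0.258% of the 13202 genes tested (34 genes). Groups did not overlap for 2 of the 9, beside 15.3% of all tested genes, and 2 of 9 had an unadjusted p under 0.05, beside 7.65%. Nothing is read from these shares, because the list was drawn up with this comparison known. All 5 importers, Slc39a1, Slc39a6, Slc39a7, Slc39a10 and Slc39a14, and Mtf1 had positive log2 fold changes, and Mt1, Mt2 and Slc30a1 negative ones. The median was 0.18, against -0.01 over all tested genes, and fell to 0.03 without HFD library 1, 0.02 without chow library 3 and 0.02 without both. Of the importers, 0 of 5 passed in edgeR, in DESeq2 or in limma-voom. In edgeR 0 of 5 had an unadjusted p under 0.05, and that of Slc39a14 was 0.0533, against 0.04305 in DESeq2.

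The call of Mt1 depended on single libraries. Leaving out HFD library 2 gave an adjusted p of 0.147, and leaving out chow library 1, 2 or 3 gave 0.0933, 0.184 and 0.128, while the log2 fold change ran from -1.28 to -0.91 over the 6 fits that leave out 1 library. Without both libraries that stood apart the log2 fold change was -1.31 for Mt1 (adjusted p = 0.142) and -1.06 for Mt2 (adjusted p = 0.304), in a fit with 2 libraries per diet. With a correction for transcript length the adjusted p of Mt1 was 0.0580 (log2 fold change -1.07).

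**Figure D2:**
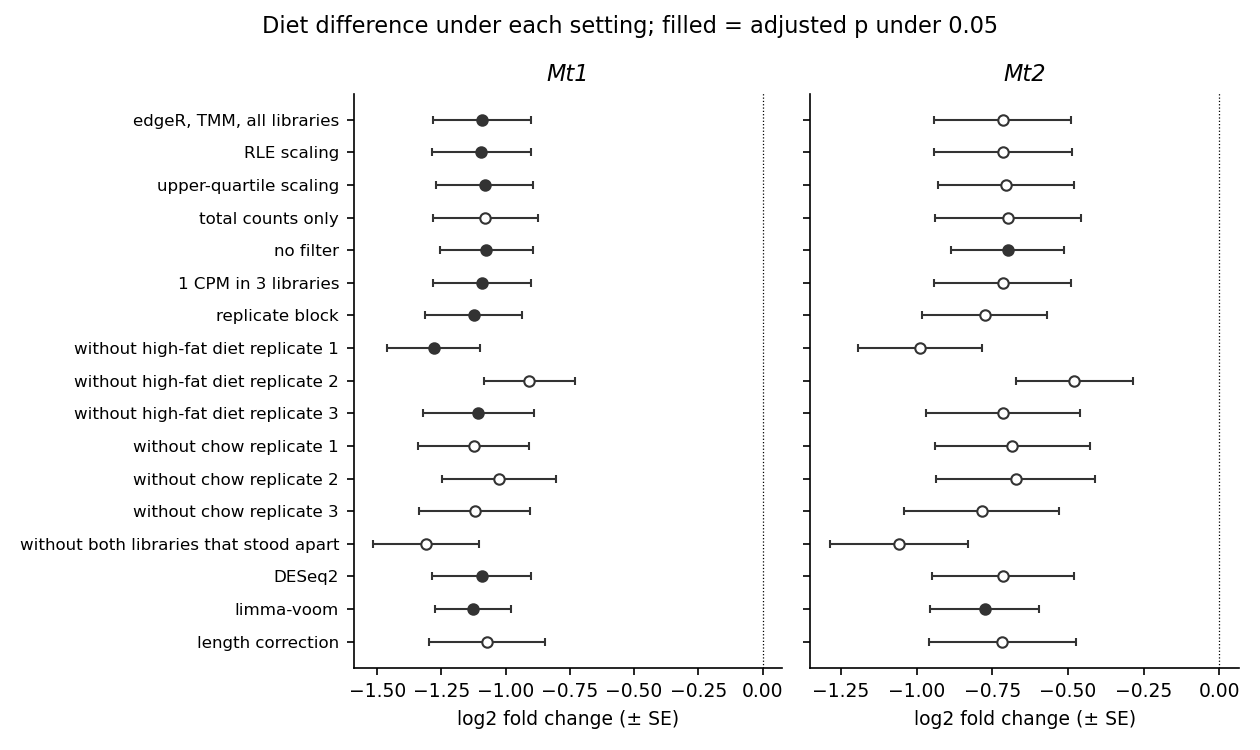
Log2 fold change of Mt1 and Mt2 (HFD minus chow, bars are SE) under each analysis setting; filled points passed an adjusted p of 0.05. Mt1 stays between -1.31 and -0.91 and passes in 9 of 16 alternatives, Mt2 between -1.06 and -0.48 and passes in 2 of 16.

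Levels of different genes were compared per length, as CPM per kb of the longest RefSeq-linked transcript. With chow the order was Mt1 (1818 ± 141), Mt2 (1148 ± 98.5), Slc39a14 (68.0 ± 3.98), Slc39a7 (27.4 ± 1.69), Slc39a1 (22.2 ± 4.85), Slc39a6 (16.3 ± 7.66), Slc39a10 (15.2 ± 2.20), Slc30a1 (3.99 ± 1.98) and Mtf1 (1.87 ± 1.74). The metallothioneins thus lay far above Slc39a14, which lay above the other 4 importers, and Slc30a1 and Mtf1 were lowest. From Slc39a7 down to Slc39a10, and between Slc30a1 and Mtf1, each neighbour lay within the summed SDs of the pair. With the HFD Mt1 was at 852 ± 228 and Mt2 at 699 ± 250, a difference smaller than either SD. Both genes were read in the same libraries, so these SDs are not the error of that difference. Before scaling by length, Mt1 had 1.21, 1.48 and 1.33 reads per Mt2 read in HFD libraries 1, 2 and 3. Which of the pair was higher depended on the length used: with the union of all annotated exons the ratio of Mt1 to Mt2 with chow was 0.803 in place of 1.58, and with the HFD 0.618 in place of 1.22.

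**Figure D3:**
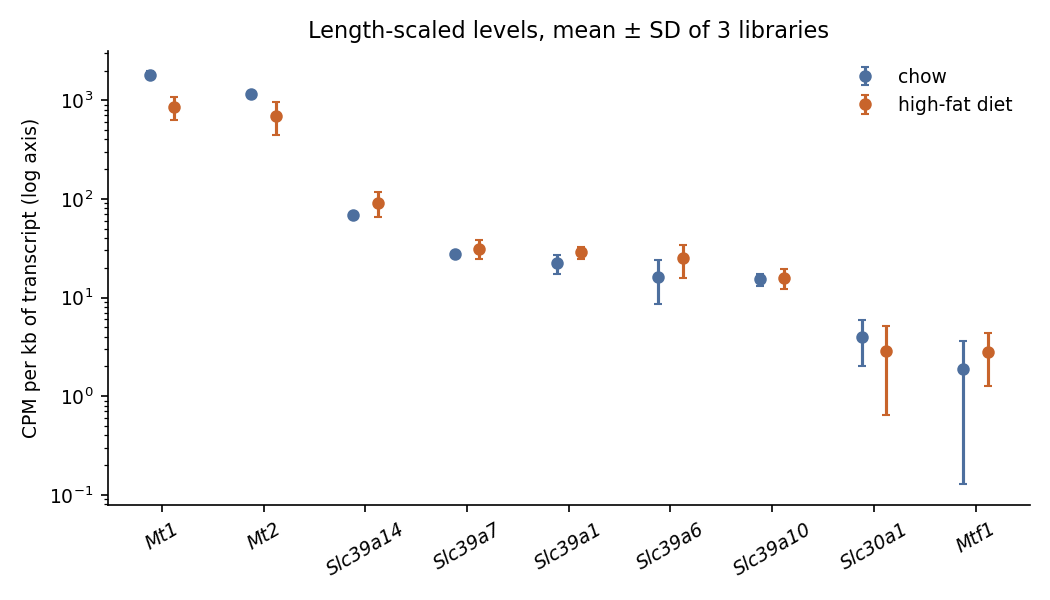
CPM per kb of transcript (log axis), mean ± SD of the 3 libraries per diet, genes ordered by the chow level. Mt1 and Mt2 stand at 699 or more in both diets, Slc39a14 at 68.0 (chow) and 91.3 (HFD), and Slc30a1 and Mtf1 at 3.99 or less.

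The remaining genes of these families were taken whole, 20 in number, and 10 of them were tested. Of these 10, 0 passed in edgeR, in DESeq2 or in limma-voom. In edgeR 1 had an unadjusted p under 0.05, beside 7.65% of all tested genes. Their median log2 fold change was 0.21, with 7 positive and 3 negative. The groups did not overlap for 3 of 10, beside 15.3% of all tested genes. The median turned to -0.04 without HFD library 1 and to -0.07 without both libraries that stood apart, and was 0.63 without chow library 2. Mt3, Mt4 and the beta-cell exporter gene Slc30a8 had 0 reads in every library, which allows up to 0.195 CPM in the library with the fewest reads. Slc30a2, Slc30a3, Slc30a10, Slc39a2, Slc39a4, Slc39a11 and Slc39a12 did not reach the count minimum either.

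The gene of the 3 with the lowest p was Slc39a3, a ZIP importer, at 0, 0.512 and 0.701 CPM with the HFD and at 5.84, 2.97 and 11.0 CPM with chow. All HFD values lay below the chow values, but at few reads (log2 fold change -4.00 ± 1.75 SE; adjusted p = 0.617). Slc30a4 and Slc30a5, which load zinc into vesicles and the secretory pathway, were the other 2. Slc30a4 was at 104, 76.3 and 84.4 CPM against 108, 107 and 107 CPM (log2 fold change -0.28 ± 0.22 SE; adjusted p = 0.909). Slc30a5 was at 26.1, 33.9 and 30.1 CPM against 45.4, 38.2 and 42.7 CPM (log2 fold change -0.49 ± 0.34 SE; adjusted p = 0.870). Slc30a7, Slc30a9, Slc39a9 and Slc39a13 had log2 fold changes of 0.12, 0.18, 0.23 and 0.33 with SEs of 0.27 to 0.81, and Slc30a6, Slc39a5 and Slc39a8 lay under 9 CPM in every library.

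**Figure D4:**
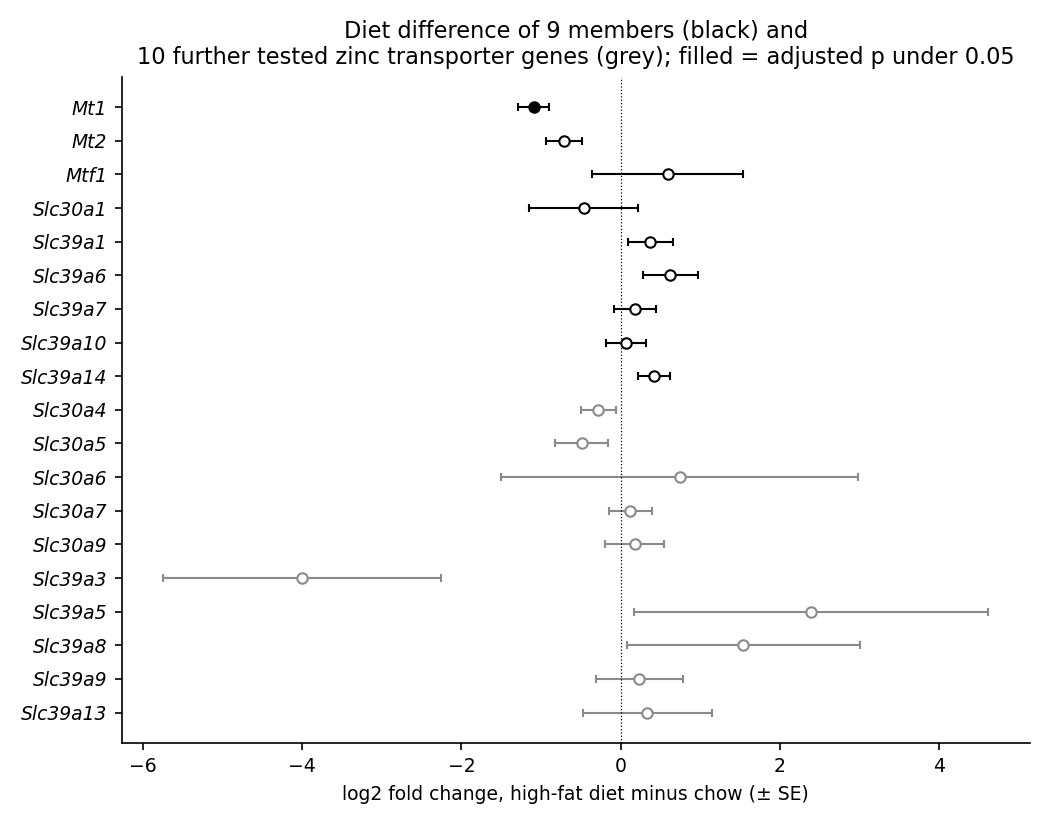
Log2 fold change (HFD minus chow, bars are SE) of the 9 genes in black and the 10 other tested Slc30 and Slc39 genes in grey; a filled point passed an adjusted p of 0.05. Mt1 at -1.09 is the 1 filled point, and the widest bars belong to genes of few reads such as Slc39a3 and Slc39a5.

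Of 6 other genes reported as MTF-1 targets, 0 passed in edgeR, DESeq2 or limma-voom. In edgeR 1 had an unadjusted p under 0.05, beside 7.65% of all tested genes. The median log2 fold change was 0.12 (3 negative, 3 positive). This median turned to -0.02 without HFD library 1 and to -0.03 without both libraries that stood apart. Ndrg1, a stress-responsive gene, was that 1, at 564, 437 and 481 CPM with the HFD and 320, 363 and 437 CPM on chow (log2 fold change 0.40 ± 0.17 SE; adjusted p = 0.605). Its sign was opposite to that of Mt1. Pgf, a growth factor of the VEGF family, was at 5.40, 3.26 and 6.26 CPM against 0.753, 0.291 and 0.459 CPM, and also did not overlap (log2 fold change 3.29 ± 1.64 SE; adjusted p = 0.697). Gclc, which makes glutathione precursors, was at 53.2 and 58.6 CPM on average (log2 fold change -0.14 ± 0.32 SE).

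Genes of copper handling, the other metal that metallothioneins bind, had 10 of 13 members tested and a median log2 fold change of -0.17 (5 negative, 5 positive), with 0 passing in edgeR, DESeq2 or limma-voom and 0 at an unadjusted p under 0.05 in edgeR. The sign of this median was not stable: it was 0.08 in limma-voom, 0.17 with the replicate block and 0.17, 0.06, 0.42 and 0.07 without HFD library 2, HFD library 3, chow library 1 or chow library 2. Atp7a, the copper-exporting ATPase, was at 307, 276 and 170 CPM with the HFD and 217, 188 and 139 CPM on chow (log2 fold change 0.47 ± 0.24 SE; adjusted p = 0.701). Of 13 iron handling genes, 0 passed in edgeR or limma-voom. In edgeR 1 had an unadjusted p under 0.05, beside 7.65% of all tested genes, and 1 passed in DESeq2, beside 280 of 13623 genes. This was Slc11a2, the divalent metal importer DMT1, at 93.3, 85.2 and 94.1 CPM against 50.3, 55.5 and 47.2 CPM (log2 fold change 0.83 ± 0.24 SE; edgeR adjusted p = 0.287, DESeq2 adjusted p = 0.0445). Hmox1, the heme oxygenase gene, was at 704 CPM in HFD library 2, the library with the lowest Mt1 and Mt2, and between 74.7 and 185 CPM in the other 5 (log2 fold change 1.05 ± 0.59 SE; adjusted p = 0.764).

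Metallothionein genes respond to glucocorticoids, so the receptor gene Nr3c1 and 9 of its targets were set beside them. All 10 had negative log2 fold changes, beside 6666 of 13202 tested genes, with a median of -0.39. The transcription factor gene Cebpd was the 1 of 10 that passed in edgeR, beside 0.258% of all tested genes (log2 fold change -1.21 ± 0.22 SE; adjusted p = 0.0373). The groups did not overlap for 3 of 10, beside 15.3% of all tested genes. Tsc22d3, Fkbp5, Per1 and Zbtb16 overlapped between the diets, with edgeR adjusted p from 0.875 to 0.983. Errfi1, an inhibitor of EGF receptor signalling and the most abundant of the list, was at 4256, 3141 and 3179 CPM with the HFD and 5570, 5019 and 5129 CPM with chow. Its values did not overlap (log2 fold change -0.57 ± 0.14 SE; edgeR adjusted p = 0.166), and it passed in DESeq2 (adjusted p = 0.00838) and in limma-voom (adjusted p = 0.000104), as Cebpd did. Over all genes 280 of 13623 passed in DESeq2 and 99 of 13202 in limma-voom. Nr3c1 itself was at 201 and 265 CPM on average (log2 fold change -0.39 ± 0.18 SE; adjusted p = 0.649). The summed level of the 10 genes was 4728 to 6233 CPM with the HFD and 7595 to 8240 CPM with chow, without overlap. Errfi1 made up the largest part of this sum in every library. The list's count of 1 became 0 when HFD library 2, or chow library 1, 2 or 3, was left out. Whether glucocorticoid signalling had a part in the metallothionein values was not tested.

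Immediate early and heat-shock genes, which dissociation of tissue can induce, differed in the same direction as the metallothioneins. All 23 on the list were negative in edgeR (median log2 fold change -1.11), beside 6666 of 13202 tested genes. In edgeR 8 of 23 passed, namely Fos, Jun, Junb, Atf3, Egr1, Btg2, Nr4a1 and Zfp36, beside 0.258% of all genes. In DESeq2 13 of 23 passed, beside 280 of 13623 over all genes, and in limma-voom 14 of 23, beside 99 of 13202. The summed level of the 23 was 12640, 14374 and 17452 CPM in HFD libraries 1, 2 and 3 and 26560, 31538 and 33429 CPM in the chow libraries. The count of 8 became 7, 4 and 11 without HFD library 1, 2 or 3, 6, 4 and 3 without chow library 1, 2 or 3, and 0 without both libraries that stood apart. Within the HFD, Fos, Jun, Junb and Egr1 were lowest in library 2, as Mt1 and Mt2 were, and Atf3, Btg2, Nr4a1 and Zfp36 in library 1. The heat-shock gene Hspa1a, among the most abundant of the list, was at 941, 2572 and 2310 CPM in HFD libraries 1, 2 and 3, which weighs on the order of the sums. Whether the handling of the tissue had a part in the metallothionein values was not tested.

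**Figure D5:**
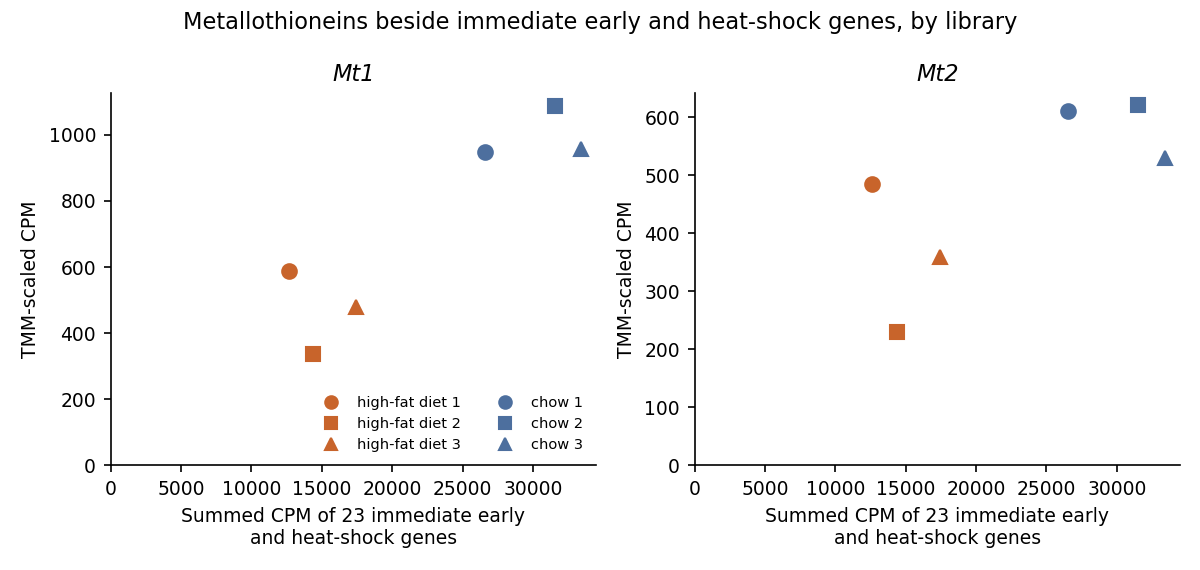
TMM-scaled CPM of Mt1 (left) and Mt2 (right) against the summed CPM of 23 immediate early and heat-shock genes, 1 point per library. The 3 chow libraries lie above and to the right of the 3 HFD libraries in both panels, with sums from 26560 to 33429 CPM against 12640 to 17452 CPM.

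The genes most like Mt1 across the 6 libraries were sought among 7054 tested genes that averaged 10 CPM or more, by the root mean square difference of centred log2 CPM. The nearest 5 were Gpam (0.108), Rbm33 (0.138), Cul9 (0.159), Tgfb2 (0.159) and Ccn1 (0.167), against a median of 0.757 over all candidates. Gpam encodes an acyltransferase that starts glycerolipid synthesis, Tgfb2 a TGF-beta ligand and Ccn1 a secreted matrix protein. Ccn1 was at 193, 139 and 182 CPM with the HFD and 325, 506 and 351 CPM with chow, and passed over all genes (log2 fold change -1.20 ± 0.21 SE; adjusted p = 0.0326). Mt2 ranked 10 for Mt1 (0.204). For Mt2 the nearest were Fbxl17 (0.133), Il11ra1 (0.148), Gadd45g (0.155), Ier2 (0.164) and Cul9 (0.171), against a median of 0.671, and Mt1 ranked 17. These distances describe 6 libraries, 3 per diet. The genes named are the smallest of 7054 distances. A gene near Mt1 by this measure shares its diet difference through the way it was picked. The call of Ccn1 is therefore no separate finding about Mt1.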

How the data were processed

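Per the file headers and the submitters' processing notes, the authors aligned reads with Bowtie2 to GRCm38 (mm10) and counted them per gene with featureCounts; the deposited values are whole-number counts per Entrez gene ID, 1 library per file, not normalized. The sources used here do not give versions, the strand setting, the annotation release or how multiply mapped reads were counted. Per the labels' protocols, at least 50000 cells per replicate, RNA integrity numbers from 8.5 to 9.4 and 75-base single reads were used.

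Symbols came from RefSeq (GRCm38.p6), with GENCODE M21 for 17 further IDs, and 1887 IDs had none. In R 4.3.3, edgeR 4.0.16 kept genes by filterByExpr (minimum count 10), scaled by TMM and ran the two-sided quasi-likelihood F test of high-fat diet against chow over all 6 libraries, adjusted by Benjamini-Hochberg over all 13202 tested genes and called at 0.05. Standard errors are the size of the log2 fold change over the root of F, and levels are TMM-scaled CPM. The distances between genes used a prior count of 2. A gene at 0 reads is given the limit that 3 reads allow, for counting error only. No library pair agreed within sampling noise (lowest chi-square per degree of freedom 57.9).

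The members, the gene lists and the tests were chosen with earlier results of these data known. The rule for naming was that every member is given, and of each other list the called genes and up to 3 more with the smallest p. Gclc, Hspa1a, Adgre1, Hbb-bs, Tsc22d3, Fkbp5, Per1, Zbtb16 and the single markers were named after their values were seen. Alternatives were 3 scalings, 2 filters, DESeq2 1.42.0, limma-voom (limma 3.58.1), the replicate number as a block, each library left out, 2 libraries left out together, and a length correction (lowess span 0.3, exon lengths for 89.9% of tested genes).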

Additional observations from a re-analysis of the deposited data

How the results depend on the processing

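Of the 9 metallothionein and zinc genes, 1 passed with TMM and also with RLE or upper-quartile scaling, the stricter filter, DESeq2 and the replicate block. The number was 0 with total counts only, 0 with the length correction and 0 without both libraries that stood apart, 2 with no filter and 2 with limma-voom (Mt1 and Mt2), and 0 to 1 with 1 library left out. Of the wider zinc family 0 genes passed in all 16 alternatives. Over all genes, 34 called genes became 163 with no filter, 280 with DESeq2, 99 with limma-voom, 1 without both libraries that stood apart and 9 to 44 with 1 library left out. Mt1, Mt2, Mtf1, Slc39a1, Slc39a6, Slc39a7 and Slc39a14 kept their sign in all 16 alternatives. With 1 library left out the sign turned for Slc30a1 (-1.20 to 0.011) and Slc30a7 (-0.081 to 0.27) without HFD library 1, Slc39a13 (-0.23 to 0.63) without HFD library 1, Slc30a6 (-0.17 to 6.26) without HFD library 2, and Slc39a10 (-0.12 to 0.20) and Slc39a9 (-0.19 to 0.88) without HFD library 1 or chow library 3, the ranges being log2 fold changes over the 6 such fits. Without both libraries that stood apart it was -0.22 for Slc39a10, -0.074 for Slc30a7, -0.47 for Slc39a9 and -0.21 for Slc39a13. The cause was not tested. The exon-union length for the ratio of Mt1 to Mt2 was chosen after seeing the data.

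The labels do not say whether the replicate numbers pair the libraries. Deviations from the diet means correlated at 0.053, 0.009 and 0 for libraries of the same number. For libraries of unlike number they correlated at -0.045 to 0.033. With 3 libraries per diet these values cannot decide whether the libraries were paired. With the replicate number as a block 45 genes were called, and the log2 fold change was -1.12 for Mt1 (adjusted p = 0.0210) and -0.78 for Mt2 (adjusted p = 0.207).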
